A study of Mus musculus with 9 samples.

Results

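The glucocorticoid receptor gene, the enzyme that regenerates its ligand inside hepatocytes and 7 genes known as receptor targets were followed in livers of mice given an antisense oligonucleotide (ASO) against apoC-III or a control ASO. The 9 genes were chosen by symbol, as *Nr3c1*, *Hsd11b1*, *Fkbp5*, *Tsc22d3*, *Sgk1*, *Cdkn1a*, *Gadd45b*, *Gadd45g* and *Errfi1*, among 51912 genes listed. The 9 fasted animals were Apoe-/- and also Ndst1 f/f with Alb-Cre+, backcrossed to C57Bl/6, so that both groups lack apoE in every tissue and carry the deletion of *Ndst1*, a heparan sulfate sulfotransferase gene, in cells where the albumin promoter drives Cre. Of these mice, 5 had received the murine apoC-III ASO and 4 the control ASO, at 50 mg/kg/week for 8 weeks by intraperitoneal injection. The diet, age and sex of these mice and the hour of tissue collection were not given in the sources used here. Each liver is a separate animal per the series' design.

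Glucocorticoids are steroid hormones of the adrenal cortex, and corticosterone is the main one in mice. The receptor, held by HSP90 and its co-chaperones in the cytosol, moves to the nucleus once it has bound hormone and there raises or lowers transcription of its targets. In liver it is known for control of gluconeogenesis, amino acid breakdown and the response to fasting. Hormone release follows a daily rhythm, and so do several hepatic targets. The receptor's classical element on DNA is a pair of hexamers, TGTTCT and its reverse complement AGAACA, 3 bases apart.

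Promoter letters are shown for *Sgk1* and *Tsc22d3* because these were the members whose windows held either hexamer. RefSeq windows on GRCm38.p6, each reaching from 250 bases before to 50 bases after a transcript start, were found for 8 of 9 members, with 17 windows in all. The whole element, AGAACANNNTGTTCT, was in 3 of 32851 such windows across the genome (0.00913%), and 1 of them belonged to *Sgk1*. The other windows were those of *Acnat2* and *Gm35041*, named after the search. A hexamer on either strand was in 19.0% of all windows, and the central letters of the element, ACANNNTGT, were in 6.85%. Among the members, hexamers lay in 3 windows of *Sgk1* and 1 window of *Tsc22d3*, and the central letters lay in 2 windows of *Sgk1*. The 250 bases before the 2 starts follow, 5′ to 3′ on the strand of the gene, with hexamers in capitals; the first is chr10:21993640-21993889 (plus strand) and the second chrX:140600523-140600772 (minus strand).
Sgk1: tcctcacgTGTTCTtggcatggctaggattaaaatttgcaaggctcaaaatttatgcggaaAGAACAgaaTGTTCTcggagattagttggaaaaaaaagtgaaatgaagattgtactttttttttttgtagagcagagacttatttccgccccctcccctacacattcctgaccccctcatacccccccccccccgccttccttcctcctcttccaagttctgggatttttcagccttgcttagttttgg
Tsc22d3: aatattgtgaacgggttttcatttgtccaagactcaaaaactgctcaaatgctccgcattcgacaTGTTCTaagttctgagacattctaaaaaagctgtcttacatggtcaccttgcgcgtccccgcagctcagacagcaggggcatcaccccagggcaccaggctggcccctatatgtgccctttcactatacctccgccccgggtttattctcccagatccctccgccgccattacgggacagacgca
In the *Sgk1* sequence the capitals begin 242, 189 and 180 bases before the start, and the latter pair makes up the whole element. The single hexamer of *Tsc22d3* began 185 bases before its start. These letters are descriptions of sequence and not evidence of receptor binding in these livers.

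The deposited unit was TPM (transcripts per 1000000), a length-corrected share of each library, so levels of different genes can be set side by side but the sequencing depth of each liver is unknown. Copies of the noncoding 7SL RNA annotated as *Rn7s* genes took 64.0% to 83.6% of TPM after the apoC-III ASO and 66.3% to 77.6% after the control ASO. Nuclear protein-coding genes held a small share, from 3.03% to 5.31% after the apoC-III ASO and from 1.94% to 8.64% after the control ASO. The lowest share was that of control ASO replicate 4. Values below are therefore the rescaled expression, in which nuclear protein-coding genes sum to 1000000 per liver before division by median-of-ratios factors. *Apoc3*, the target of the ASO, was at 451 ± 112 (SD, n = 5) after the apoC-III ASO and at 3579 ± 493 (SD, n = 4) after the control ASO, a log2 fold change of -3.01 (SE 0.23, limma adjusted p = 3.83e-04). On both scales the groups did not overlap for *Apoc3*.

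Hepatocyte markers dominated every liver, with a summed expression of 29032 to 65437 over the 7 markers tested after the apoC-III ASO, against 45240 to 48470 after the control ASO. Markers of other liver cells had overlapping sums. The 8 Kupffer cell markers summed to 86.3 to 122 after the apoC-III ASO and 79.0 to 136 after the control ASO, the 8 sinusoidal endothelial markers to 168 to 421 and 199 to 348, and the 5 cholangiocyte markers to 37.9 to 81.4 and 41.0 to 121. The 8 stellate cell markers summed to 231 to 332 and 285 to 496, and 7 of the 8 had a lower mean after the apoC-III ASO, as did 6 of 7 hepatocyte markers. With rescaling without factors 4 of 8 stellate cell and 1 of 7 hepatocyte markers were lower, and in TPM as deposited 2 of 4 and 2 of 7. On these scales 88.0% and 70.8% of all genes tested were higher. Above the median log2 fold change of all genes were 1 of 8 stellate cell and 1 of 7 hepatocyte markers without factors. In TPM as deposited these were 1 of 4 and 2 of 7. Markers of lymphocytes and neutrophils summed to 8.97 to 26.0 and 16.7 to 29.6, with *S100a8* listed at 0 in all livers. In whole liver, fewer cells of a type and less RNA per cell cannot be told apart, and the part of these cells in the results below was not tested.

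No member passed the test for a difference between the groups. All 9 passed the filter of a mean rescaled expression of at least 1, which left 11954 genes for the limma-trend test on log2(value + 1). Calls required more than a 1.5-fold difference and an adjusted p (Benjamini-Hochberg) under 0.05. This held for 2 of 11954 genes (0.0167%), *Apoc3* and *Anpep*, and for 0 of 9 members. An unadjusted p under 0.05 was found for 0 of 9 members and for 5.56% of all genes tested. The adjusted p of the members ran from 0.884 to 0.996. Mean log2 expression was higher after the apoC-III ASO for 7 members and lower for 2. The median log2 fold change was 0.17, beside -0.0012 for all genes tested. That median was the value of *Gadd45b*, the member with the lowest expression. Its mean was 1.28 after the apoC-III ASO and 0.92 after the control ASO, so it reached the filter only through the apoC-III ASO livers. With a filter at a mean of 5, 6 of 8 tested members were higher, with a median of 0.145 beside -0.0041. Both members with a lower mean, *Hsd11b1* and *Fkbp5*, had a higher mean log2 value in TPM as deposited, where the median of all genes was 0.11. With rescaling but without median-of-ratios factors all 9 were higher, and the median of all genes was then at 0.41.

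**Figure D1:**
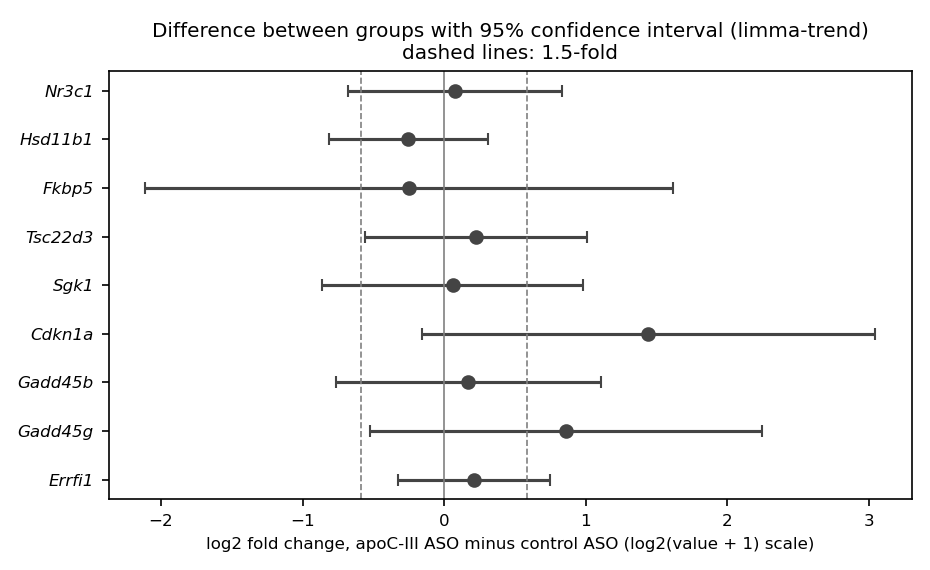
Log2 fold change (x axis, apoC-III ASO minus control ASO, log2(value + 1) scale) of the 9 genes with 95% confidence intervals from limma-trend. Every interval includes 0, and those of *Fkbp5*, *Cdkn1a* and *Gadd45g* are the widest.

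The members covered a broad range of levels. In mean rescaled expression over 9 livers the order was *Hsd11b1* (408), *Errfi1* (296), *Fkbp5* (141), *Tsc22d3* (123), *Gadd45g* (72.8), *Nr3c1* (30.6), *Sgk1* (25.7), *Cdkn1a* (9.34) and *Gadd45b* (1.12). *Hsd11b1* stood at percentile 98.3 of the genes tested and *Gadd45b* at percentile 1.60. The ranges of neighbours in this order overlapped in every case. *Fkbp5* exceeded *Tsc22d3* in 5 of 9 livers and *Nr3c1* exceeded *Sgk1* in 5 of 9 livers, so neither pair could be ordered. *Tsc22d3* exceeded *Gadd45g* in 6 of 9 livers, and each of the other neighbours kept the order in 8 of 9.

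**Figure D2:**
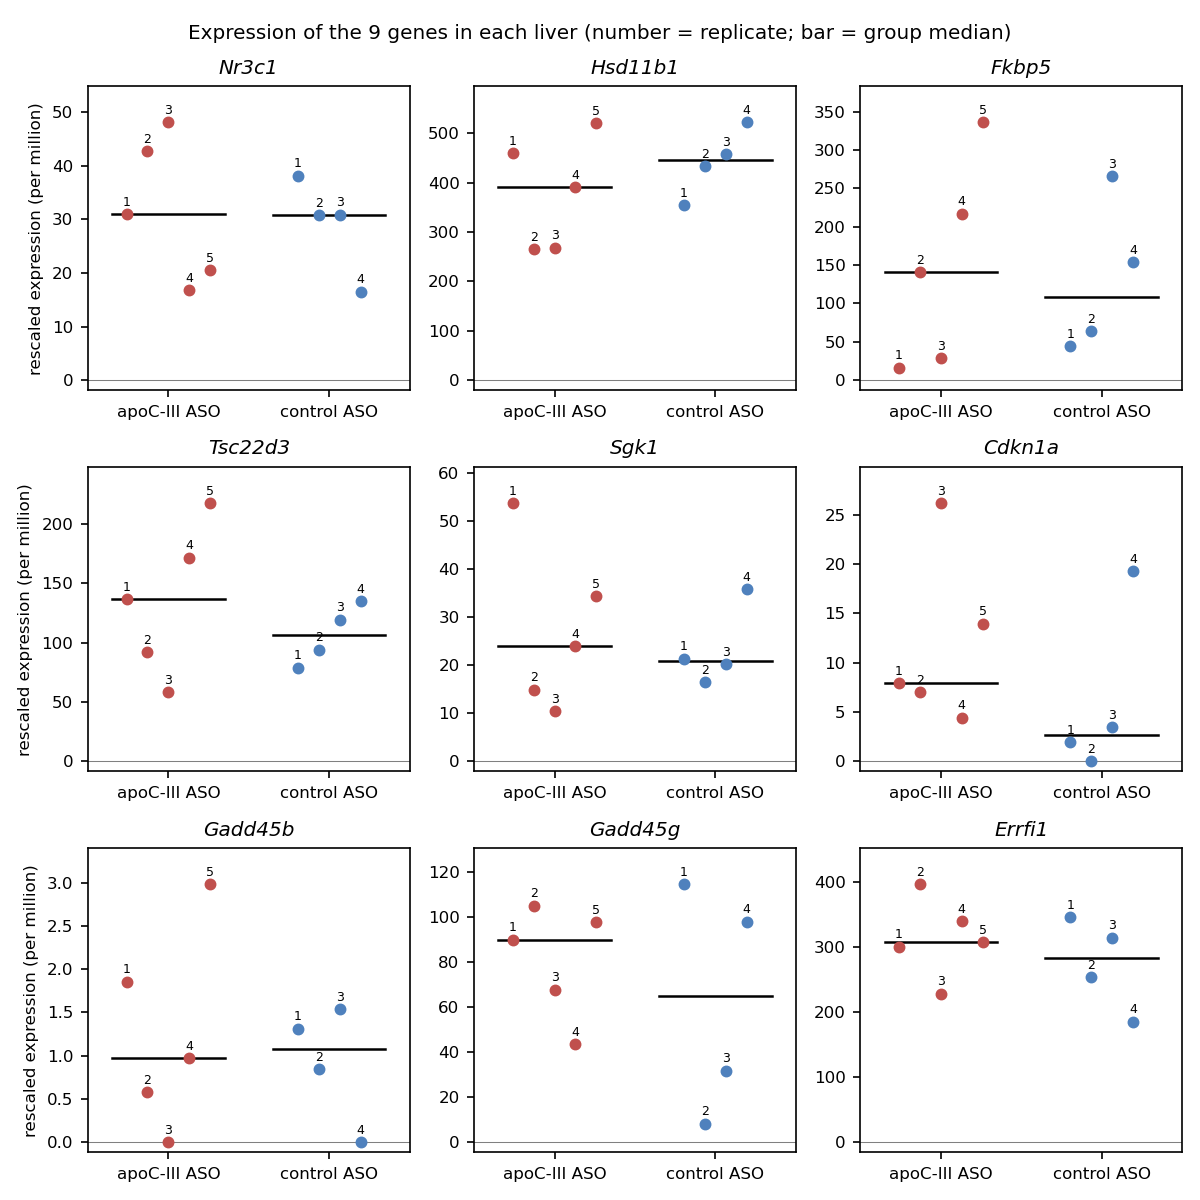
Rescaled expression per 1000000 (y axis, linear, starting near 0) of each gene in 5 apoC-III ASO livers (red) and 4 control ASO livers (blue). Each point is a liver labelled with its replicate number and the bar is the group median; the groups overlap in all 9 panels, and *Fkbp5* runs from 16.2 to 336.

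*Nr3c1* encodes the glucocorticoid receptor and lies on chromosome 18 (39410545 to 39519421, minus strand, GRCm38). Its rescaled expression in apoC-III ASO replicates 1 to 5 was 31.0, 42.7, 48.1, 16.8 and 20.5. In control ASO replicates 1 to 4 it was 38.2, 30.7, 30.8 and 16.5. Both groups held livers above 38 and below 17, and the means were 31.8 ± 13.6 (SD, n = 5) and 29.1 ± 9.07 (SD, n = 4). The log2 fold change was 0.08 (95% confidence interval -0.68 to 0.84, limma adjusted p = 0.992). An exact two-sided permutation test over all splits of the livers into 5 and 4 gave p = 0.794.

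*Hsd11b1*, on chromosome 1 (193221634 to 193264075, minus strand), encodes the reductase of the endoplasmic reticulum that turns inert 11-dehydrocorticosterone back into corticosterone. Rescaled expression was 459, 265, 269, 390 and 521 in the apoC-III ASO livers. The control ASO livers were at 354, 433, 458 and 523. Replicates 2 and 3 of the apoC-III ASO group were below every control liver, whereas the other 3 lay within the control range. The groups differed by -0.25 in log2 (95% confidence interval -0.81 to 0.31, limma adjusted p = 0.943), and the exact permutation p was 0.365. The opposing oxidase gene *Hsd11b2* did not pass the filter on low values.

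*Fkbp5*, on chromosome 17 (28399094 to 28517527, minus strand), encodes an HSP90 co-chaperone that lowers the receptor's affinity for hormone and is itself induced by the receptor, which makes it a commonly used readout of receptor activity. The apoC-III ASO livers had a rescaled expression of 16.2, 140, 28.8, 217 and 336. In the control ASO livers it was 44.1, 63.8, 265 and 153. The lowest and the highest of all 9 livers were both in the apoC-III ASO group, 20.8-fold apart, and the control livers lay between them. Within groups the SD of its log2 expression was 1.60, at percentile 98.8 of the 6536 genes with a mean of at least 10. The log2 fold change was -0.25 (SE 0.85), and its 95% confidence interval ran from -2.11 to 1.61, that is from 0.231-fold to 3.06-fold (limma adjusted p = 0.992). A 3-fold difference in either direction lies within that interval. Its arithmetic mean was in contrast higher after the apoC-III ASO, 148 ± 134 (SD, n = 5) against 132 ± 101 (SD, n = 4). Leaving out apoC-III ASO replicate 1 turned the log2 fold change to 0.34, and leaving out apoC-III ASO replicate 5 made it -0.73. It was also above 0 without apoC-III ASO replicate 3 (0.14) or control ASO replicate 3 (0.20).

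*Tsc22d3* encodes GILZ, a leucine zipper protein through which glucocorticoids restrain inflammatory transcription, and lies on chromosome X (140539528 to 140600659, minus strand). Rescaled expression was 137, 92.0, 57.9, 172 and 218 in the apoC-III ASO livers. Control ASO livers were at 78.9, 94.2, 119 and 135. As for *Fkbp5*, apoC-III ASO replicates 4 and 5 were high and replicate 3 was low, so that the apoC-III ASO livers lay on both sides of the control range. On the log2 scale the difference was 0.22 (SE 0.36, limma adjusted p = 0.966), with an exact permutation p of 0.603.

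*Sgk1*, a serine/threonine kinase gene induced by glucocorticoids and mineralocorticoids, lies on chromosome 10 (21882184 to 21999903, plus strand) and carried the whole element shown above. Its rescaled expression was 53.7, 14.8, 10.5, 24.0 and 34.3 in apoC-III ASO livers. In control ASO livers it was 21.3, 16.4, 20.2 and 35.8. Replicate 1 of the apoC-III ASO group was the highest of all livers and replicate 3 the lowest. The groups differed by 0.06 in log2 (SE 0.42, limma adjusted p = 0.996) and the exact permutation p was 0.889.

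*Errfi1*, on chromosome 4 (150853919 to 150868892, plus strand), encodes the feedback inhibitor of the EGF receptor also known as MIG6. It was the least variable member, with a within-group SD of 0.34 in log2 expression. Rescaled expression was 300, 396, 228, 339 and 307 after the apoC-III ASO and 346, 253, 314 and 185 after the control ASO. On the log2 scale the difference was 0.21 (95% confidence interval -0.32 to 0.75, limma adjusted p = 0.948), with an exact permutation p of 0.413.

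*Cdkn1a* and *Gadd45g*, both linked to growth arrest, had the largest fold changes among the members, and neither passed the test. *Cdkn1a*, on chromosome 17 (29090976 to 29100727, plus strand), encodes the cyclin-dependent kinase inhibitor p21. Its rescaled expression was 7.92, 6.99, 26.2, 4.41 and 14.0 in apoC-III ASO livers. In control ASO livers it was 1.90, 0, 3.47 and 19.3. All 5 apoC-III ASO livers were above control replicates 1 to 3, and control replicate 4 was above 4 of the 5. The log2 fold change was 1.44 (95% confidence interval -0.16 to 3.05, limma unadjusted p = 0.0733, adjusted p = 0.884), and the exact permutation p was 0.175. With a pseudocount of 0.1 in place of 1 the log2 fold change was 2.36.

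The overlap of the *Cdkn1a* groups rested on control ASO replicate 4 and on the scale. In TPM as deposited, *Cdkn1a* was at 0.570, 0.462, 1.24, 0.228 and 0.403 in apoC-III ASO livers. Control ASO livers were at 0.152, 0, 0.183 and 0.186 TPM. On this scale the groups did not overlap, which held in that direction for 0.269% of the 26067 genes above 0 TPM in any liver. A gene at 0 in an apoC-III ASO liver cannot separate in this way. Each of these livers had 18344 to 20928 genes above 0, so this share and the share after rescaling below are not over like sets of genes. The exact permutation p on log2(TPM + 1) was 0.0159, the smallest that splits of 9 livers into 5 and 4 allow and unadjusted for the number of members. With a mean of 0.380 TPM the gene was below the filter and was not tested with limma on TPM. After rescaling, 0 of 9 members had every apoC-III ASO liver above every control liver, beside 0.92% of all genes tested. The rescaling multiplied the TPM of control replicate 4 by 103.8 and that of the other livers by 12.4 to 34.7. Without control replicate 4 the log2 fold change of the rescaled values was 2.22 (limma unadjusted p = 0.00281, adjusted p = 0.789), and without control replicate 2, where the gene was listed at 0, it was 0.77.

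**Figure D3:**
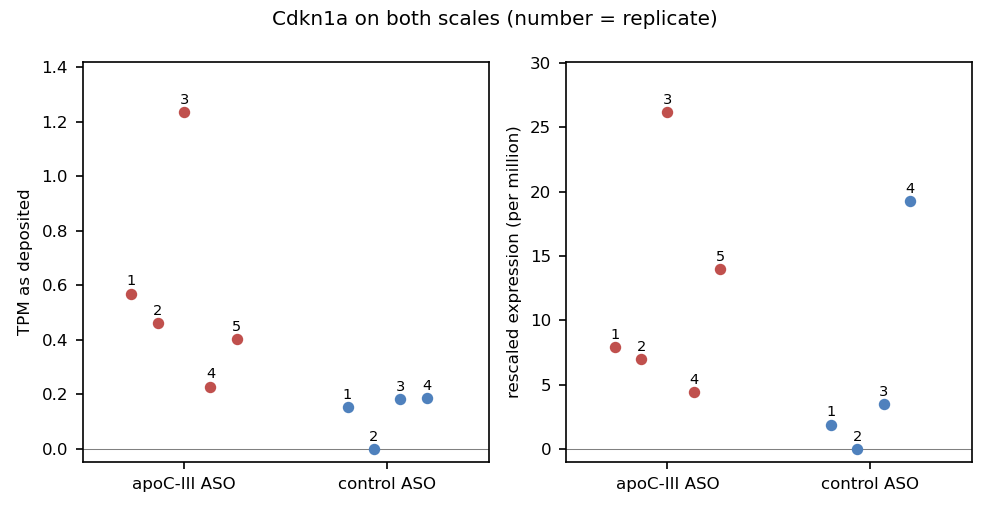
*Cdkn1a* in each liver, as TPM as deposited (left y axis) and as rescaled expression per 1000000 (right y axis), both linear. Each point is a liver with its replicate number; control ASO replicate 4 is at 0.186 TPM and, after rescaling, at 19.3, above 4 of the 5 apoC-III ASO livers.

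*Gadd45g* and *Gadd45b* belong to a family of small stress proteins that act on MAP kinase signaling and cell cycle arrest. *Gadd45g*, on chromosome 13 (51846678 to 51848468, plus strand), had a rescaled expression of 89.9, 105, 67.6, 43.4 and 97.5 in apoC-III ASO livers. In control ASO livers it was 114, 8.21, 31.6 and 97.8, so that the control livers fell into a high and a low pair around most of the apoC-III ASO livers. The log2 fold change was 0.86 (95% confidence interval -0.53 to 2.24, limma adjusted p = 0.908), with an exact permutation p of 0.397. Without control replicate 2, the lowest liver, the log2 fold change was 0.12, and with any other single liver left out it lay between 0.73 and 1.33. *Gadd45b*, on chromosome 10 (80930073 to 80932204, plus strand), was at 1.86, 0.58, 0, 0.97 and 2.98 in apoC-III ASO livers and at 1.31, 0.85, 1.54 and 0 in control ASO livers. It was at most 0.133 TPM in any liver, and no difference was detectable at that level (limma adjusted p = 0.988).

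The members did not vary as 1 group over the livers. In apoC-III ASO replicates 4 and 5, which were low for *Nr3c1*, the targets *Fkbp5* and *Tsc22d3* were high. In replicate 3, the highest for *Nr3c1*, both were low. The livers lowest for *Nr3c1* were apoC-III ASO replicates 4 and 5 and control replicate 4. These also had the largest *Rn7s* shares of TPM (83.6%, 81.5% and 77.6%), and the part of that share in the pattern was not tested. Over 9 livers the log2 expression of *Nr3c1* and *Tsc22d3* had a Pearson r of -0.84 (exact permutation p = 0.00514) and a Spearman rho of -0.77 (exact permutation p = 0.0214). Of 36 pairs of members this was the strongest by r, while *Hsd11b1* and *Sgk1* were the strongest by rho. After Benjamini-Hochberg adjustment over the pairs, p for *Nr3c1* and *Tsc22d3* was 0.160 for r and 0.229 for rho. The r was -0.93 without the 2 livers farthest from the median of *Nr3c1*, and -0.87 for deviations from the group means. *Hsd11b1* went with *Sgk1* (r = 0.77, exact permutation p = 0.0113, adjusted 0.160, rho = 0.80, exact permutation p = 0.0138, adjusted 0.229). That r was 0.51 without the 2 livers farthest from the median of *Hsd11b1*, and 0.76 without the 2 farthest from that of *Sgk1*. By r, the exact permutation p was also under 0.05 for *Nr3c1* and *Hsd11b1* (r = -0.75, p = 0.0133). The same held for *Hsd11b1* and *Tsc22d3* (r = 0.75, p = 0.0215) and for *Tsc22d3* and *Sgk1* (r = 0.74, p = 0.0224). No pair passed the adjustment.

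The genes whose pattern over the 9 livers was closest to that of a member, by Pearson r of log2 expression among all genes tested, were not other members. For *Nr3c1* they were *Erc2* (r = 0.98) and *Tead3* (0.96), and for *Fkbp5* *Gemin2* (0.96) and *Wdr93* (0.95). For *Tsc22d3* they were *Mtl5* (0.95) and *Bud13* (0.94), for *Hsd11b1* *Acsf3* (0.96) and *H2-Aa* (0.95), and for *Sgk1* *Sacm1l* (0.90) and *Rcn2* (0.90). *Cdkn1a* was closest to *Pigb* (0.98) and *Mfsd10* (0.92), *Gadd45b* to *Cep85l* (0.95) and *Arsa* (0.93), *Gadd45g* to *Bok* (0.94) and *Acer2* (0.94), and *Errfi1* to *Hist2h4* (0.97) and *Nckipsd* (0.95). These are the highest correlations among the 11954 genes tested and are given as a description.

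Because hormone release and several receptor targets follow the time of day, the clock genes were set beside the members. *Arntl*, which encodes the clock activator BMAL1, was at 17.7, 11.1 and 30.9 in apoC-III ASO replicates 1 to 3. It was at 0.74 and 2.75 in replicates 4 and 5 and at 0.32 to 2.46 in the control livers. *Per2*, a clock repressor gene that is also a receptor target, was at 3.35, 8.31 and 4.81 in replicates 1 to 3, at 25.1 and 40.5 in replicates 4 and 5, and at 88.1, 130, 83.7 and 12.1 in the control livers. Both genes thus divided the apoC-III ASO livers, replicates 1 to 3 against replicates 4 and 5. *Fkbp5* was low in replicates 1 and 3 but not in replicate 2. *Tsc22d3* was lower in replicates 1 to 3 than in replicates 4 and 5, and *Nr3c1* was higher. Control replicates 1 to 3 had low *Arntl* and high *Per2*, but *Nr3c1* was at 38.2, 30.7 and 30.8 there. These values were above those of apoC-III ASO replicates 4 and 5 (16.8 and 20.5). *Tsc22d3* was at 78.9, 94.2 and 119 in these control livers, below apoC-III ASO replicates 4 and 5. Control replicate 4 was at 16.5 for *Nr3c1* and 135 for *Tsc22d3*. The part of the clock in the spread of these members was not tested.

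**Figure D4:**
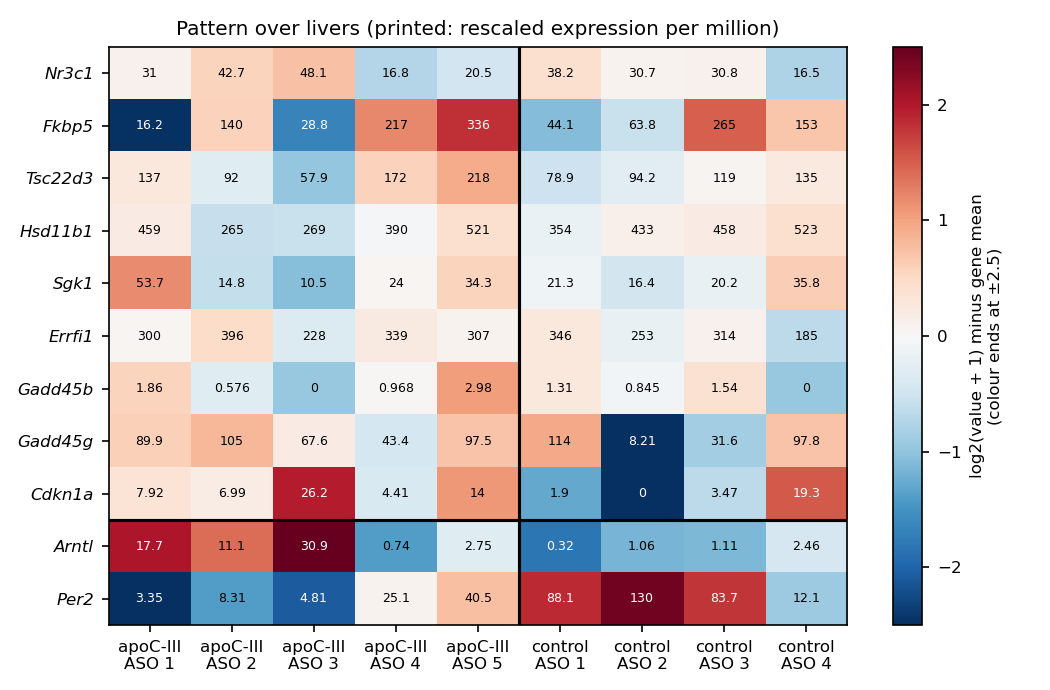
Heat map of log2(value + 1) minus each gene's mean over 9 livers (colour, ends at ±2.5), with the rescaled expression per 1000000 printed in each cell. Rows are the 9 genes and, below the line, the clock genes *Arntl* and *Per2*; columns are the 5 apoC-III ASO livers and the 4 control ASO livers. *Arntl* is high in apoC-III ASO replicates 1 to 3, and *Nr3c1* and *Tsc22d3* take opposite colours in most livers.

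Lists of genes around the receptor were read in the same fit, and 0 genes of any list were called. Of 16 receptor chaperones and cofactors, 6 were higher and 10 lower in mean after the apoC-III ASO, 0 had an unadjusted p under 0.05 and the median log2 fold change was -0.05. The genes of this list with the smallest p were the corepressor gene *Nrip1* (-0.38), the HSP90 co-chaperone gene *Ppid* (-0.29) and the Mediator subunit gene *Med1* (-0.15). Their limma adjusted p ran from 0.900 to 0.966. The split of the list moved with the scale. It was 16 of 16 higher with rescaling without factors, 11 of 14 in TPM as deposited and 0 of 14 in TPM without control replicate 4. Of all genes tested, 88.0%, 70.8% and 16.2% were higher on these scales. Above the median log2 fold change of all genes were 7 of 16, 7 of 14 and 3 of 14.

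Of 10 tested genes of glucocorticoid metabolism and carriage, 9 had a lower mean after the apoC-III ASO, with a median log2 fold change of -0.43. In TPM as deposited 5 of 7 tested were lower. With rescaling but no median-of-ratios factors, which moved the median of all genes to 0.41, 4 of 10 were lower. Above the median of all genes were 2 of 7 and 2 of 10. *Serpina6* encodes corticosteroid-binding globulin, the plasma carrier of corticosterone. It was at 72.5, 101, 99.6, 225 and 202 in apoC-III ASO livers. In control ASO livers it was at 241, 238, 195 and 413. Replicates 1 to 3 of the apoC-III ASO group were below every control liver, while replicates 4 and 5 were above the lowest control. The log2 fold change was -1.03 (SE 0.36, limma unadjusted p = 0.0145, adjusted p = 0.864). *Cyp3a13*, a steroid-metabolising cytochrome P450 gene, was at 52.7 ± 10.7 (SD, n = 5) and 85.2 ± 27.6 (SD, n = 4), with a limma adjusted p of 0.878. The efflux transporter gene *Abcb1a* was lower in all 5 apoC-III ASO livers than in any control liver, at 0.26 to 0.97 against 1.16 to 2.52. Such a separation held for 0.912% of all genes tested, and the limma adjusted p of *Abcb1a* was 0.878. Its mean was 0.74 after the apoC-III ASO and 1.60 after the control ASO, so it reached the filter of 1 only through the control livers.

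Among 30 other liver targets of the receptor, 14 had a higher and 16 a lower mean, with a median log2 fold change of -0.03. Unadjusted p was under 0.05 for 1 gene in each direction. With rescaling without factors 25 of 30 were higher, beside 88.0% of all genes, and 16 of 30 were above the median of all genes. In TPM without control replicate 4, 6 of 24 were higher, beside 16.2% of all genes, and 13 of 24 were above that median. *Dusp1*, a MAP kinase phosphatase gene, was at 37.1, 32.5, 10.8, 49.3 and 46.7 in apoC-III ASO livers and at 10.5, 11.0, 11.4 and 20.3 in control ASO livers. Only replicate 3 of the apoC-III ASO group lay within the control range, and the log2 fold change was 1.23 (SE 0.40, limma unadjusted p = 0.0103, adjusted p = 0.864). *Glul*, the glutamine synthetase gene of pericentral hepatocytes, was at 249 ± 64.2 (SD, n = 5) and 459 ± 178 (SD, n = 4), a log2 fold change of -0.85 (limma unadjusted p = 0.00969, adjusted p = 0.864). *Mt1*, a metallothionein gene, was at 262 and 217 in control replicates 3 and 4 and at 4.61 to 37.1 in the other 7 livers, with a limma adjusted p of 0.902.

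The lists around the downstream members gave no call either. Of 16 p53 targets and growth arrest genes, among them the *Gadd45a* paralog, 12 had a higher mean. The median log2 fold change was 0.10. With rescaling without factors 15 of 16 were higher, and 10 of 16 were above the median of all genes. In TPM as deposited without control replicate 4, 2 of 5 were higher and 4 of 5 were above that median. *Aen*, a p53-induced exonuclease gene, had a log2 fold change of 0.80 (limma unadjusted p = 0.0351, adjusted p = 0.878), whereas *Plk2* (0.45) and *Gadd45a* (-1.01) had an adjusted p of 0.900. In the EGF receptor axis, on which *Errfi1* acts, 6 genes had a higher and 6 a lower mean. The ligand gene *Tgfa* was at -0.71 (limma unadjusted p = 0.0496, adjusted p = 0.878), and the receptor genes *Erbb3* at 0.38 and *Egfr* at -0.44. With rescaling without factors 11 genes of this axis were higher and 1 lower, and 5 of 12 were above the median of all genes. Among 10 genes of the SGK family and its partners, 6 were higher in mean. With rescaling without factors 10 of 10 were higher, and 0 of 4 in TPM without control replicate 4. Above the median of all genes on these scales were 6 of 10 and 2 of 4. *Nedd4l*, a ubiquitin ligase gene whose product SGK1 phosphorylates, had a log2 fold change of 0.87 (limma unadjusted p = 0.0311, adjusted p = 0.878), *Ndrg1* of 0.66 and *Nedd4* of 0.10.

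*Nr3c2* and *Esr1*, which encode other steroid receptors, had a lower mean after the apoC-III ASO, and neither was called. The product of *Nr3c2* is the mineralocorticoid receptor, which also binds corticosterone. *Nr3c2* was at 29.5, 17.8, 8.38, 8.27 and 18.1 in apoC-III ASO livers and at 48.2, 39.2, 27.1 and 15.1 in control ASO livers. The ranges overlapped, with a log2 fold change of -0.97 (SE 0.41, limma unadjusted p = 0.0377, adjusted p = 0.878). *Esr1* was at 4.10 ± 0.96 (SD, n = 5) and 11.6 ± 8.39 (SD, n = 4), with a limma adjusted p of 0.864.

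Of 17 clock genes tested, 4 had a higher and 13 a lower mean, with 2 genes in each direction at an unadjusted p under 0.05. With rescaling without factors 11 of 18 were higher, beside 88.0% of all genes, and 5 of 18 were above the median of all genes. By limma, the log2 fold changes were -2.31 for *Per2* (SE 0.77), 2.03 for *Arntl* (SE 0.73) and 0.96 for *Nfil3* (SE 0.30), each with an adjusted p of 0.864. In TPM as deposited without control replicate 4, a setting added after seeing the data, *Per2* was called at a limma adjusted p of 0.0027. The liver left out was the lowest control for *Per2* after rescaling, at 12.1 against 83.7 to 130. No other setting called a clock gene. Of 13 immediate early genes tested, 12 had a higher mean, beside 49.8% of all genes, with a median log2 fold change of 0.49. *Egr1* and *Nr4a1* had control means under 1, so they reached the filter only through the apoC-III ASO livers. With a filter at a mean of 5, 6 of 6 tested were higher, beside 49.4% of all genes. In TPM as deposited 2 of 2 tested were higher, beside 70.8% of all genes. *Dusp1*, *Fos* (1.10, limma unadjusted p = 0.0126, adjusted p = 0.864) and *Zfp36* (0.81, unadjusted p = 0.0411, adjusted p = 0.878) had the smallest p. Several immediate early genes, *Dusp1* and *Zfp36* among them, are also known glucocorticoid targets.

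**Figure D5:**
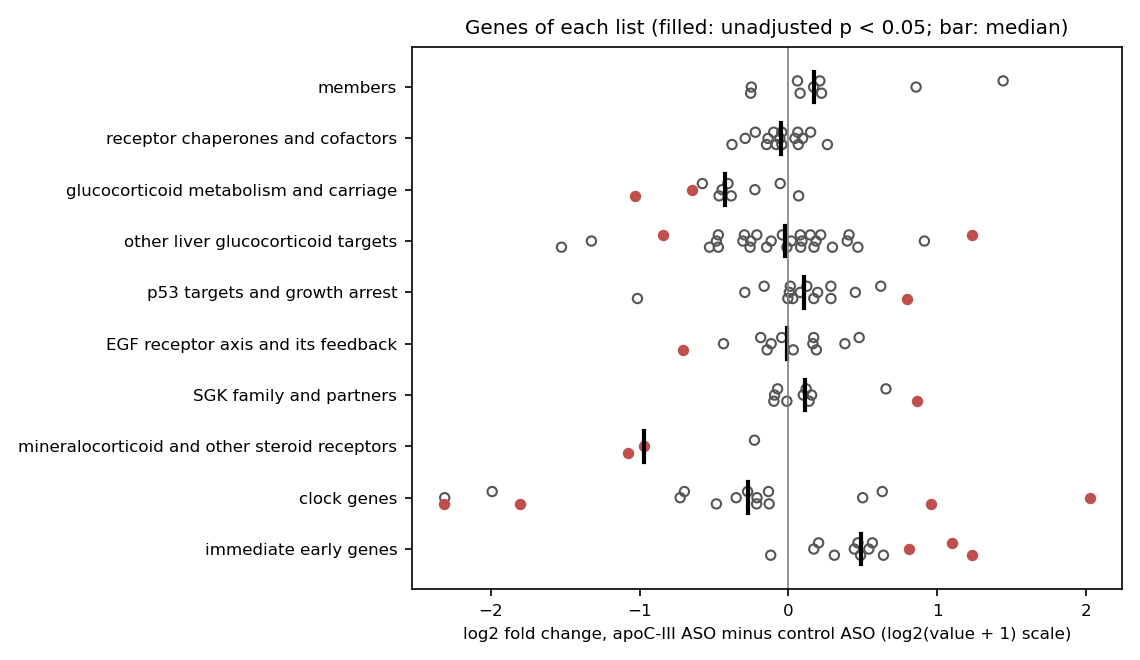
Log2 fold change (x axis, apoC-III ASO minus control ASO) of each tested gene by list (y axis), with the list median as a bar. Filled points have an unadjusted limma p under 0.05, and no gene plotted had an adjusted p under 0.05; the median is 0.49 for immediate early genes and -0.43 for glucocorticoid metabolism and carriage.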

How the data were processed

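RNA from 9 livers had been sequenced as ribo-depleted, stranded, single-end libraries. The authors deposited TPM for 51912 genes; the submitters' notes name kallisto 0.43.1 and GRCm38, whereas the methods name STAR, featureCounts and DESeq2 for counts (not used here). Depth is lost in TPM, so no counting error could be given. Identifiers were matched to GENCODE M21 (51633, 99.46%), and values of the 21780 nuclear protein-coding genes were scaled to sum to 1000000 in each liver, then divided by median-of-ratios factors from 12256 genes, since *Rn7s* copies dominate TPM and differ between livers. Genes with a mean of at least 1 were tested with limma 3.58.1 (R 4.3.3, trend) on log2(value + 1), 5 against 4 livers, without covariates. Fold changes are on that scale and understate changes of low genes. The steps were tested on simulated data. Exact two-sided permutation tests used every split of the livers. Python 3.11.15, pandas 2.3.3, numpy 2.4.6, scipy 1.17.1 and matplotlib 3.10.9 were used.

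The members and lists were chosen with earlier results of these data known. From each list other than cell type markers, the 3 tested genes with the smallest unadjusted p are named, and for each member the 2 genes with the highest r; 1 gene of this rule is not reported here. Other scalings, pseudocounts, filters, variance models, a replicate block and each liver left out were tried as alternatives; TPM as deposited without control ASO replicate 4 was added after seeing the data.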

Additional observations from a re-analysis of the deposited data

Results flagged for a closer look

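Of 36 sets of values (9 genes, 2 groups, 2 scales), 3 held a liver far from the rest of its group by Dixon's test, which flags about 1 in 20 sets by chance. All 3 were in TPM as deposited, and none on the rescaled values. *Tsc22d3* was at 1.30 TPM in control ASO replicate 4, against 5.93 to 6.34 in the other control livers. *Sgk1* was at 3.86 TPM in apoC-III ASO replicate 1, against 0.493 to 1.24 in the other 4 livers of its group. *Gadd45g* was at 9.20 TPM in control ASO replicate 1, against 0.516 to 1.67 in the other 3. Control ASO replicate 4 had the lowest share of nuclear protein-coding genes (1.94%), and the part of that share in the value of *Tsc22d3* was not tested.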

How the results depend on the processing

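No alternative called a member, and their adjusted p was at least 0.450. *Cdkn1a*, *Gadd45g* and *Tsc22d3* had a higher mean after the apoC-III ASO in every alternative that tested them. In TPM as deposited the log2 fold change turned to 0.059 for *Hsd11b1* and 0.12 for *Fkbp5*, and with rescaling without factors to 0.22 for both. The median of all genes was 0.11 and 0.41 in these settings. In TPM as deposited without control ASO replicate 4 the log2 fold change turned to -0.28 for *Nr3c1* and -0.29 for *Errfi1*. There 3 of 7 tested members were higher, beside 16.2% of all genes, and the median of all genes was -0.23. Array weights turned *Gadd45b* to -0.15. Leaving out 1 liver at a time gave -0.16 to 0.27 for *Nr3c1* (below 0 without apoC-III ASO replicate 2 or 3 or control replicate 4). For *Fkbp5* it gave -0.73 to 0.34. For *Sgk1* it gave -0.23 to 0.33 (below 0 without apoC-III ASO replicate 1 or 5 or control replicate 2). For *Gadd45b* it gave -0.12 to 0.43 (below 0 without control replicate 4). Without apoC-III ASO replicate 5, *Gadd45b* fell below the filter and was not tested. An unadjusted p under 0.05 was reached by 2 members without factors (*Cdkn1a* 1.92, *Gadd45g* 1.34), beside 11.0% of all genes tested. With array weights it was reached by 1 member (*Cdkn1a* 1.94), beside 7.48% of all genes. With a liver left out it was reached by 0 to 1 (*Cdkn1a* 2.22 without control replicate 4, beside 5.32% of all genes). Of all genes tested, 11 were called in TPM as deposited, 4 in TPM without control replicate 4, 1 without factors, without a filter or without the trend, and 1 to 3 with a liver left out. The cause was not tested.

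Same-numbered livers had correlated deviations of 0.0658, 0.122, 0.0264 and 0.191, so the numbers were not taken as pairs. A replicate block left 0 members called and 3 genes in all, and turned *Sgk1* to -0.0715 and *Gadd45b* to -0.0719. In this block apoC-III ASO replicate 5 had no same-numbered control liver and so did not enter the difference. For the 8 members tested without that liver, the log2 fold changes were the same as with it left out. With unknown depth, values of *Cdkn1a*, *Gadd45b* and *Abcb1a* near 0 carry an unknown counting error.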
